A study of Mus musculus with 12 samples.

Results

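The genes that flank Grn on mouse chromosome 11 were taken as every gene whose midpoint lies between 97.4 and 107.4 Mb (mm10) and whose mean over all libraries reached 0.5 CPM (reads scaled to library size). The window held 319 genes. Of these, 14 (Grn itself among them) were left out by name, 116 fell under the floor, and 189 members remained of 27179 genes in the table. All 189 were among the 15298 genes tested. The rule uses position, name and the mean level over all libraries. Just over the floor were 1700001P01Rik (0.510 CPM) and Gm12359 (0.527 CPM), and just under it Hsd17b1 (0.434 CPM) and Gm7020 (0.428 CPM). Arhgap23 and Pitpnc1 were the outermost members, and Socs7 and Psmd12 the first genes beyond the edges.

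The libraries were made from cortex RNA, with 4 per genotype. KO animals (Grn-/-, progranulin null) were 282 to 308 days old. MUT animals (Grn-/-;GRNmEx5), a humanized line that also lacks mouse progranulin and carries a human GRN deletion allele, were 272 to 309 days old. WT animals (Grn+/+) were 287 days old in replicate 1 and 375 days in replicates 2 to 4. KO and MUT thus share the Grn-/- genotype, and whether they carry the same Grn allele, the strain of each line and the number of crosses are not given in the labels. Ages set all 4 MUT libraries apart from each other, but WT replicates 2 to 4 share age and labelled sex, as do KO replicates 3 and 4, and the labels do not say that these came from different animals. Where they do not, the p-values describe a spread between libraries that may be in part technical.

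Progranulin, the product of Grn, is a secreted glycoprotein that is taken up into lysosomes. Neighbouring genes on a chromosome are inherited together, so a line made by targeting a gene in cells of one strain and crossed to another tends to keep donor DNA on both sides of the target. Sequence differences in such a stretch can alter the expression of the genes inside it in every carrier. The comparisons ask which genes of the window shift alike in KO and MUT. The strain origin of the DNA was not tested.

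Grn (mm10 chr11:102430322-102436809, plus strand) was low in every library labelled KO or MUT. It averaged 12.8 ± 1.38 CPM in KO, 13.5 ± 1.59 CPM in MUT and 58.0 ± 1.35 CPM in WT (SD, n = 4 each). For both Grn-null groups together the log2 fold change against WT was -2.17, with an SE of 0.08 (edgeR adjusted p = 2.21e-08).

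Several libraries stood apart for reasons the genotype labels do not give. Sex-linked transcripts ran against the labelled sex in 12 of 12 libraries, and since a model with a sex term is the same under either coding, the labels were kept as given. Summed CPM of 19 detected striatal projection neuron markers, none of them at 0 in any library, was 854 to 1041 in KO and 772 to 970 in MUT. The same sum was 928, 1411, 2095 and 3517 in WT replicates 1 to 4. Choroid plexus markers (12 of 15 tested, of which 4 were at 0 in some library) summed to 272 to 2968 CPM in KO, 279 to 2381 CPM in MUT and 299 to 1286 CPM in WT, with the high values in KO replicate 3, MUT replicate 1 and WT replicate 4. All 10 cortical excitatory neuron markers were detected in every library. Their sums were 4753 to 5454 CPM in KO, 4475 to 5529 CPM in MUT and 5286 to 6628 CPM in WT. Microglia markers summed to 418 to 445 CPM in KO, 422 to 449 CPM in MUT and 378 to 439 CPM in WT, and endothelium markers to 332 to 397 CPM in KO, 349 to 437 CPM in MUT and 353 to 380 CPM in WT, with none of either list at 0. In bulk tissue, fewer cells of a type and less RNA per cell cannot be told apart.

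Each of 3 pairs of members that lie head to head, with starts close together on opposite strands, holds a gene described in the results. The stretch between both starts of each pair is shown, since in each pair at least 1 gene has libraries that set it apart: its Grn-null libraries all lay to one side of WT. This holds for 5 head-to-head pairs in all, of which Retreg3 with Tubg1 and P3h4 with Fkbp10 are not shown. Sequences are from RefSeq (GRCm38.p6), plus strand, in lower case. Capitals mark matches on either strand to the GC box, spelled GGGCGG, to the CCAAT box, spelled CCAAT, or to the E-box, spelled CACGTG.
Plcd3 to Acbd4, chr11:103101659-103101687: gggaggagggagagagggagggacgaggt
Coa3 to Cntd1, chr11:101278949-101279198: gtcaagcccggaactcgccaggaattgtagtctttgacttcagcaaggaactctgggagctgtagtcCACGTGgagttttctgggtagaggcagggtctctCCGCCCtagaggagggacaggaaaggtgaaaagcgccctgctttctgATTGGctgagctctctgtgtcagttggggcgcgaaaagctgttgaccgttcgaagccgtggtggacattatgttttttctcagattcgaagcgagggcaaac
Cdc27 to Myl4, chr11:104550621-104550662: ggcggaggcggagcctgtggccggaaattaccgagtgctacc

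The whole 29-base stretch between Plcd3 and Acbd4 was 69% G or C, and the 42 bases between Cdc27 and Myl4 were 66.7% G or C. The Coa3 stretch, printed for 250 of its 254 bases, was 53.6% G or C and held a single match to each motif. Among 32851 RefSeq promoters read over a window of the same length, 32.7% held GGGCGG, 33.8% CCAAT and 6.02% CACGTG. Neither of the shorter stretches held any of these motifs, which 9.54%, 4.4% and 0.947% of promoters hold in 29 bases and 13.3%, 6.93% and 1.38% in 42 bases. A match is a string of letters, not a shown binding site.

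Few of the 189 flanking genes were called as changed. With both Grn-null groups set against WT, Acbd4 rose and Coa3 fell, so that 2 of 189 members were called (edgeR quasi-likelihood test, adjusted p under 0.05 over all tested genes), beside 20 of 15298 genes or 0.131%. By direction, 0.0523% of all genes rose and 0.0784% fell. In KO alone Acbd4 and Adam11 rose, again 2 of 189, beside 0.477% of all genes called in either direction and 0.144% that rose. In MUT alone 0 members were called, beside 0.0196% of all genes, and 37 members had an unadjusted p under 0.05. The 37 include Meox1, which passed the 0.5 CPM floor only through the Grn-null libraries. They also include 1700003D09Rik and Gm12359, which were over it in WT but not in the Grn-null mean. No member was called the same way in both comparisons, beside 0.0131% of all genes. MUT against KO gave 0 called members, beside 0.00654% of all genes, and 10 with an unadjusted p under 0.05. DESeq2 called 13 members in both Grn-null groups, 11 in KO, 4 in MUT and 0 in MUT against KO, beside 3.41%, 4.23%, 0.34% and 0.0981% of all genes in the same comparisons.

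The calls changed as single libraries were left out. Without WT replicate 1, the 1 WT animal under 310 days, 28 members were called for both Grn-null groups, beside 11% of all genes tested. Without WT replicates 2, 3 or 4, any one MUT library, or KO replicates 1 or 2, 0 were called. The count was 1 without KO replicate 4 and 2 without KO replicate 3. For KO against WT it was 22 without WT replicate 1, beside 10.6% of all genes, 2 without WT replicate 3, MUT replicate 1 or KO replicate 4, and 0 without any of the other libraries. For MUT against WT it was 21 without WT replicate 1, beside 6.89%, and 0 otherwise. Called the same way in KO and in MUT were 14 members without WT replicate 1, beside 5.52%, and 0 otherwise.

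Acbd4, an acyl-CoA-binding protein that in human cells tethers peroxisomes to the endoplasmic reticulum, was higher in every Grn-null library than in every WT library. It measured 37.5, 39.4, 41.8 and 36.8 CPM in KO, 39.9, 37.1, 39.0 and 36.2 CPM in MUT, and 30.7, 28.1, 31.6 and 27.6 CPM in WT. The log2 fold change of both groups was 0.37 (SE 0.06, edgeR adjusted p = 0.0423), with 0.39 in KO (adjusted p = 0.0338) and 0.36 in MUT (adjusted p = 0.182). The call for both groups was lost with age as a term (adjusted p = 0.659), with the striatal marker level (0.33), with the replicate block (0.0608), without the 3 libraries high in choroid plexus genes (0.143) and in 12 other alternatives of 26, in which the adjusted p ranged from 5.96e-05 to 0.87. KO and MUT were each set against the same WT libraries. The gene lies 0.67 Mb above Grn, at the higher coordinate (chr11:103101688-103112199, plus strand), and its exons share no bases with another gene of the table.

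Coa3, an assembly factor of cytochrome c oxidase in the mitochondrial inner membrane, ran the other way. It measured 38.7, 42.7, 37.8 and 43.3 CPM in KO, 37.1, 34.7, 37.2 and 37.1 CPM in MUT, and 45.7, 49.9, 51.9 and 51.3 CPM in WT. The log2 fold change of both groups was -0.34 (SE 0.05, edgeR adjusted p = 0.0422), with -0.27 in KO (adjusted p = 0.0603) and -0.41 in MUT (adjusted p = 0.0885). The call for both groups was lost under the same 4 settings (adjusted p = 0.659, 0.372, 0.0946 and 0.16) and in 11 other alternatives of 26, in which the adjusted p ranged from 4.7e-05 to 0.87. The MUT libraries were all below the KO ones, with a log2 fold change of -0.14 for MUT against KO (95% interval -0.27 to -0.01) that missed the threshold (edgeR adjusted p = 0.862). Coa3 lies 1.16 Mb below Grn (chr11:101277970-101278948, minus strand).

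Adam11, a neuronal member of the ADAM family that lacks protease activity, reached the threshold in KO. It measured 285, 313, 303 and 305 CPM in KO, 267, 289, 330 and 285 CPM in MUT, and 251, 222, 217 and 187 CPM in WT. All 8 Grn-null libraries exceeded all 4 WT ones, and WT replicate 1 was the closest to them. In KO the log2 fold change was 0.46 with an SE of 0.09 (edgeR adjusted p = 0.0485). In MUT, against the same WT libraries, it was 0.41 with an SE of 0.09 (edgeR adjusted p = 0.302). With the animals under 310 days alone, where WT is replicate 1, the KO value was 0.22 (adjusted p = 0.548, in a range of 0.000121 to 0.679 over all alternatives). Adam11 lies 0.34 Mb above Grn.

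**Figure D1:**
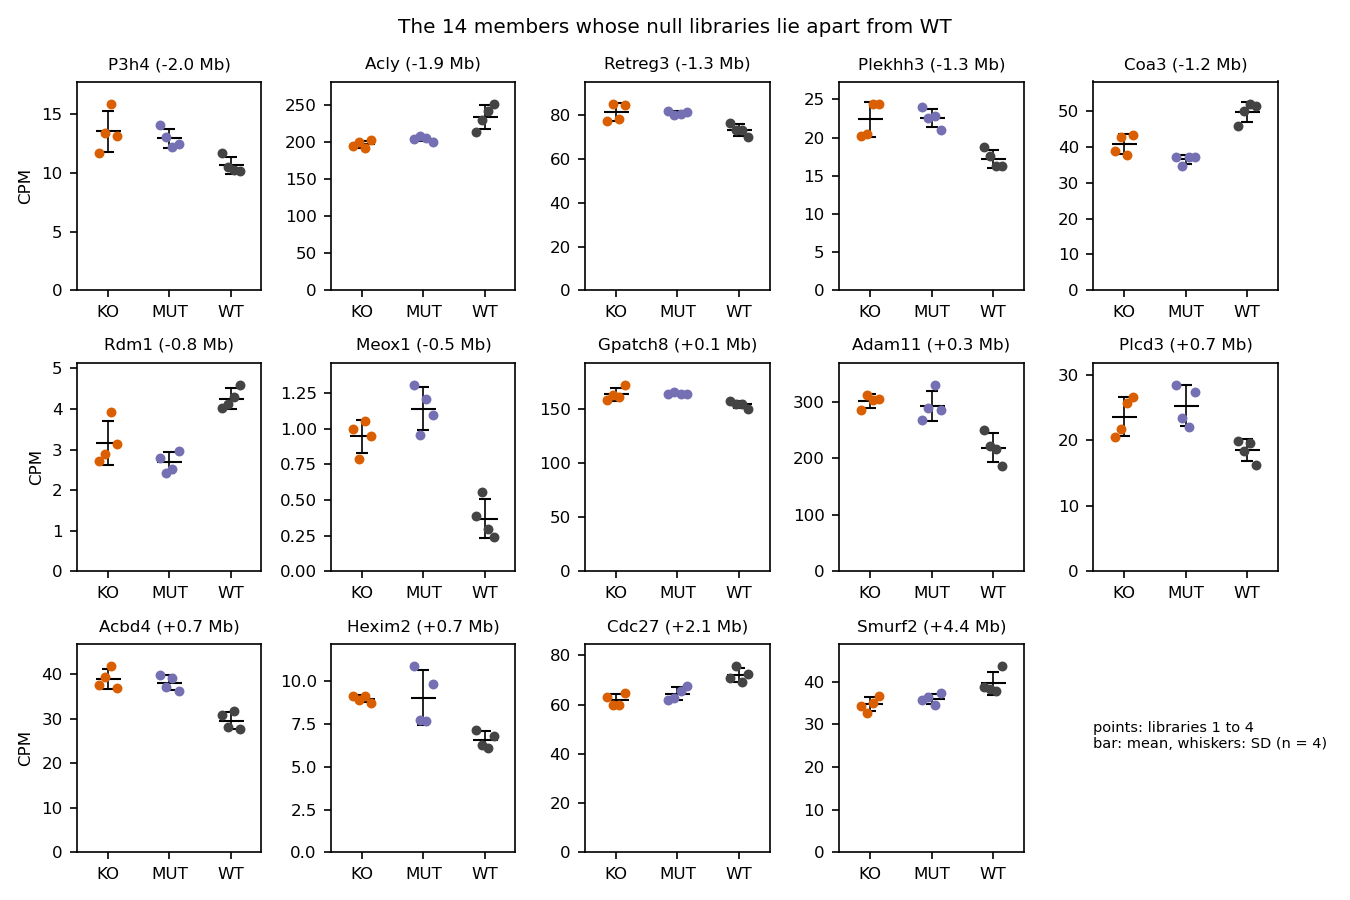
CPM of the members whose 8 Grn-null libraries do not overlap the 4 WT libraries, 1 panel per gene and 1 point per library, with KO, MUT and WT side by side, a bar at each group's mean and whiskers of 1 SD (n = 4). Axes start at 0, and panel titles give the distance from Grn in Mb. In each panel all KO and MUT points lie on one side of the WT points, and WT replicate 1 is the WT library nearest them in 10 of 14 members.

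A shift shared by both Grn-null groups can be read without the model by asking whether all 8 Grn-null libraries lie on one side of all 4 WT libraries. This held for 14 of 189 members (7.41%), beside 3.01% of all tested genes. Of the 14, 9 were higher in the Grn-null libraries (4.76%, beside 1.34%) and 5 lower (2.65%, beside 1.67%). Meox1, 1 of the 9, averaged 0.369 CPM in WT and so passed the 0.5 CPM floor only through the Grn-null libraries. Among the 185 members over the floor both in the Grn-null mean and in WT, a limit chosen after the values were seen, the count was 13. On chromosome 11 outside the members the share was 34 of 1060 (3.21%), and on other chromosomes 412 of 14049 (2.93%). KO alone was apart from WT in 25 members (13.2%), beside 9.11%, and MUT alone in 27 (14.3%), beside 7.09%. WT replicate 1 was the WT library nearest to the Grn-null ones in 10 of the 14. Against WT replicates 2 to 4 alone, 32 members (16.9%) did not overlap, beside 15.3% of all genes, and against WT replicate 1 alone 55 (29.1%), beside 24%. Leaving out the 3 libraries high in choroid plexus genes gave 21 (11.1%), beside 5.86%.

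Most of the 14 lay close to Grn. Within 1 Mb of it 7 of 51 members did not overlap (13.7%), from 1 to 2.5 Mb 6 of 55 (10.9%), and from 2.5 to 5 Mb 1 of 83 (1.2%). Below Grn, at lower coordinates, there were 7 of them and above it, at higher coordinates, 7. Position, name and the mean level over all libraries chose the members, and differences between groups were no part of that rule. The choice was, however, made with earlier results of these data known. Under 1 Mb 6 of the 7 were higher in the Grn-null libraries, and from 1 to 2.5 Mb 3 were higher and 3 lower. The 6 include Meox1, which passed the floor only through the Grn-null libraries. Of the members over the floor both in the Grn-null mean and in WT, 6 of 50 under 1 Mb did not overlap (12%), 5 of them higher. Without WT replicate 1 the counts in the 3 bins were 11, 9 and 12, beside 15.2% of all genes. From 2.5 to 5 Mb the count was 3 without WT replicate 4 or MUT replicate 4 and 2 without KO replicate 4.

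**Figure D2:**
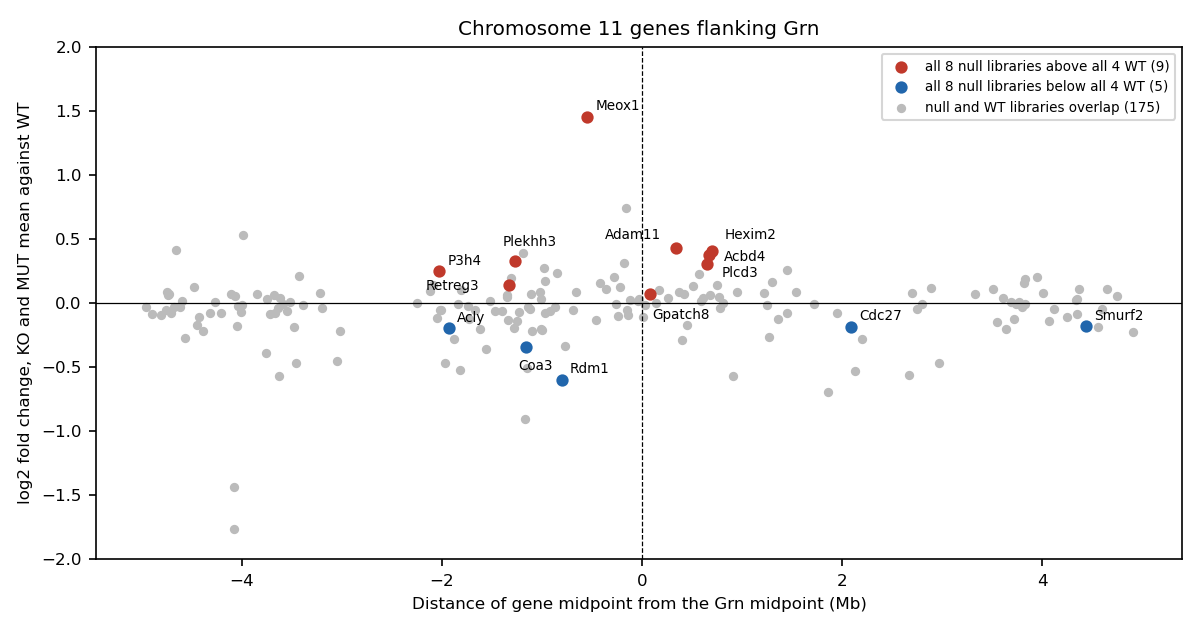
Log2 fold change of the mean of KO and MUT against WT for the 189 members, by distance of each gene's midpoint from that of Grn in Mb (negative values lie below Grn, at lower coordinates). Red and blue points are the 9 members whose Grn-null libraries all lie above WT and the 5 whose Grn-null libraries all lie below, and 13 of these 14 lie within 2.5 Mb.

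**Figure D3:**
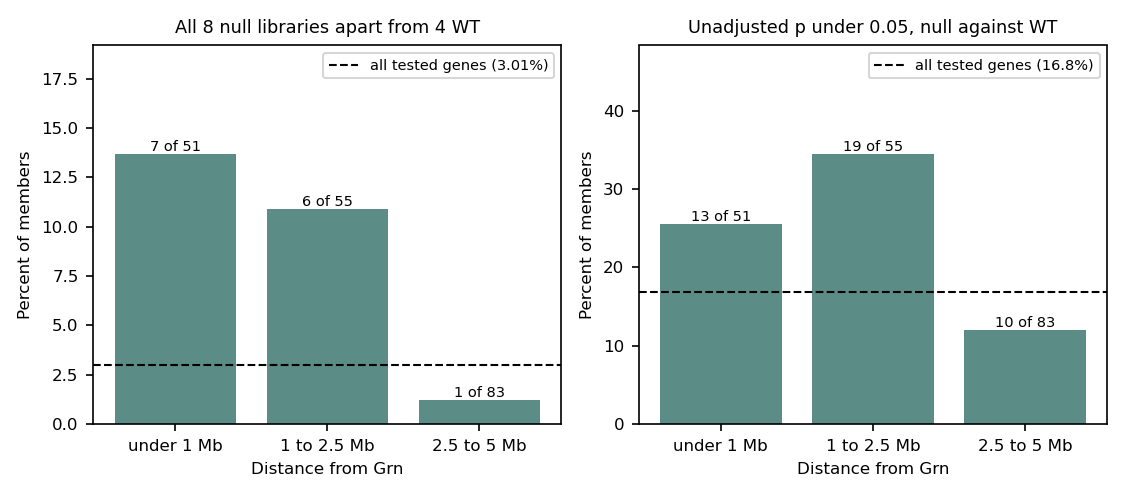
Percent of members in 3 bins of distance from Grn, on the left those whose 8 Grn-null libraries do not overlap the 4 WT libraries and on the right those with an unadjusted p under 0.05, with dashed lines at the share of all tested genes (3.01% and 16.8%). The first 2 bins lie above the line and the outermost bin below it in both panels. The nearest bin counts Meox1, which passed the 0.5 CPM floor only through the Grn-null libraries. On the right the outermost bin counts 1700003D09Rik, which passed the floor only through WT.

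The test statistics were read in the same way. An unadjusted edgeR p under 0.05 with the same sign in KO and in MUT was found for 24 members (12.7%), beside 7.02% of all genes. Of these, 14 were higher than WT, beside 2.73%, and 10 lower, beside 4.29%. Both comparisons use the same WT libraries, so a shared sign is no result by itself. By distance it was 9 of 51 members (17.6%) under 1 Mb, 10 of 55 (18.2%) from 1 to 2.5 Mb and 5 of 83 (6.02%) from 2.5 to 5 Mb. Meox1 is 1 of the 14 higher and of the 9 under 1 Mb. It passed the 0.5 CPM floor only through the Grn-null libraries, so its p is no test. For both groups together, 42 members (22.2%) had an unadjusted p under 0.05, beside 16.8% of all genes and 17.7% of the other tested genes on chromosome 11. By distance these were 13 (25.5%), 19 (34.5%) and 10 (12%). Meox1 is counted in the 42 and the 13. The 42 and the 10 also count 1700003D09Rik, which passed the floor only through WT. The median absolute log2 fold change was 0.090 over members and 0.089 over all tested genes, and 73% of members, against 78.9% of all genes, were within 0.2. With its sign, the median was -0.02 over members and 0.00 over all tested genes.

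**Figure D4:**
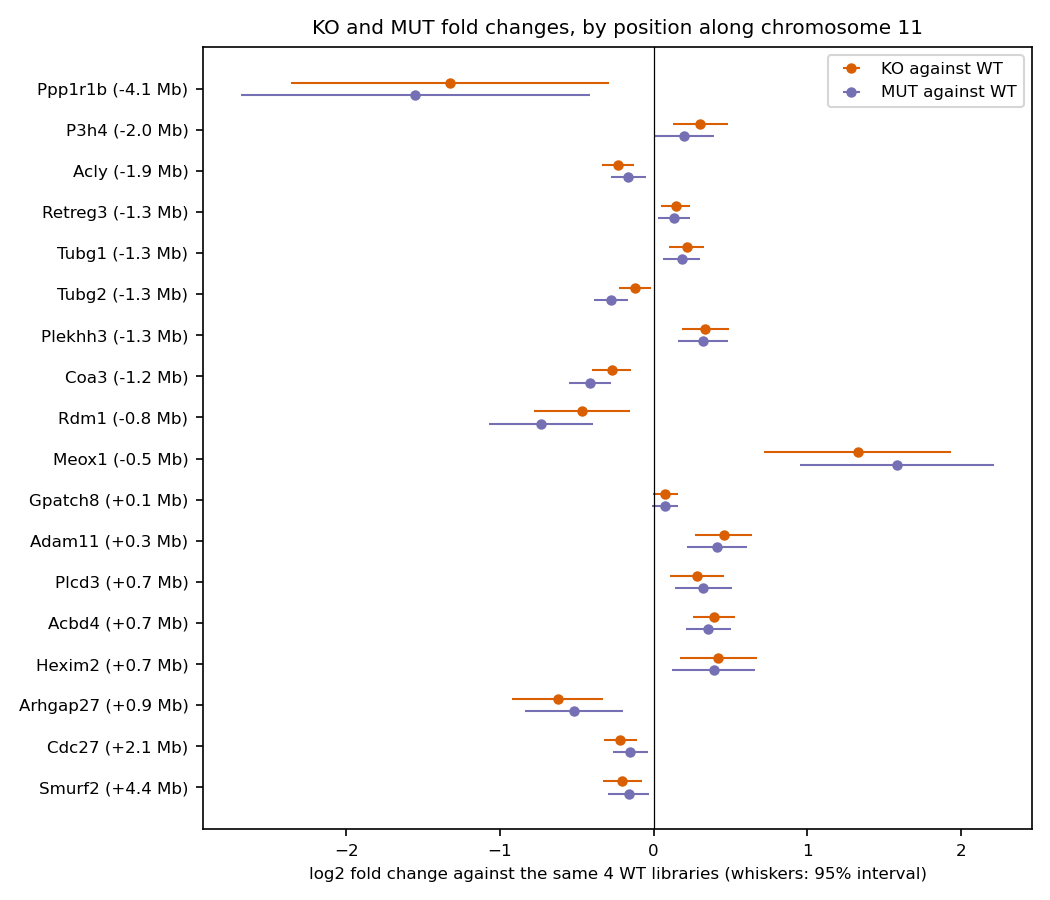
Log2 fold change in KO and in MUT, both against the same 4 WT libraries, with 95% intervals as whiskers, for the 14 members whose libraries do not overlap and Ppp1r1b, Tubg1, Tubg2 and Arhgap27, from the lowest to the highest position on chromosome 11. Meox1 is furthest above 0, at 1.33 in KO and 1.58 in MUT, and Ppp1r1b furthest below, at -1.32 in KO and -1.55 in MUT. Meox1 passed the 0.5 CPM floor only through the Grn-null libraries, so its intervals are a description and no test.

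The counts by role that follow are for both Grn-null groups against WT, to be read beside 0.131% of all genes called and 16.8% with an unadjusted p under 0.05. Among the 30 members that act in transcription and chromatin, 0 were called, 7 had an unadjusted p under 0.05 and the median log2 fold change was 0.01. The 7 include Meox1. Meox1, a homeobox factor of mesodermal development, had few reads in cortex. Its counts were 19, 15, 19 and 17 in KO, 27, 18, 21 and 18 in MUT, and 7, 10, 6 and 4 in WT. All Grn-null libraries were higher, at 0.79 to 1.31 CPM against 0.24 to 0.56 CPM in WT, with a log2 fold change of 1.46. Since Meox1 passed the floor only through the libraries where it is high, its difference is a description and no test is given. Hexim2, an inhibitor of the elongation kinase P-TEFb, ranged from 7.68 to 10.9 CPM in Grn-null libraries and from 6.08 to 7.15 CPM in WT, a log2 difference of 0.41 ± 0.11 (SE; edgeR adjusted p = 0.11). Ubtf, an RNA polymerase I factor, and Atxn7l3, a subunit of the SAGA deubiquitinase module, sit next to Grn and are described with the nearest genes.

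The 16 members of mitochondria and metabolism included 1 that rose (Acbd4) and 1 that fell (Coa3), 6 had an unadjusted p under 0.05, and their median log2 fold change was 0.00. Plcd3, a phospholipase C, shares its start region with Acbd4. It measured 20.4, 21.7, 25.7 and 26.6 CPM in KO, 28.4, 23.4, 22.0 and 27.3 CPM in MUT, and 19.9, 18.3, 19.6 and 16.2 CPM in WT. The groups did not overlap, but the closest libraries, KO replicate 1 and WT replicate 1, were 20.4 and 19.9 CPM (log2 fold change of both groups 0.30, SE 0.07, edgeR adjusted p = 0.0971). Acly, which makes cytosolic acetyl-CoA from citrate, ranged from 192 to 208 CPM in Grn-null libraries and from 213 to 252 CPM in WT. Its log2 fold change was -0.20 (SE 0.04, adjusted p = 0.0864), and -0.09 in animals under 310 days.

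Of the 21 members of endosomes, lysosomes, autophagy and vesicle traffic, 0 were called, 4 had an unadjusted p under 0.05 and the median log2 fold change was -0.05. Cdc27 was the only one of these whose libraries did not overlap, at 59.7 to 67.7 CPM in Grn-null libraries and 69.1 to 75.8 CPM in WT. The log2 fold change was -0.18 ± 0.04 (SE; edgeR adjusted p = 0.0966). It is a subunit of the anaphase-promoting complex and stands in the turnover list as well. Nothing measured here ties it to endosomes, lysosomes or vesicle traffic. Retreg3, a receptor in autophagy of the endoplasmic reticulum, is outside this list, and its libraries did not overlap either. Arhgap27, a gene linked to endocytosis, measured 12.1, 11.8, 15.2 and 13.0 CPM in KO, 17.1, 15.3, 12.6 and 11.7 CPM in MUT, and 17.0, 18.5, 21.3 and 22.4 CPM in WT. The groups overlapped only at MUT replicate 1 and WT replicate 1, and the log2 fold change was -0.57 (SE 0.12, adjusted p = 0.0864). The autophagy genes Becn1 and Nbr1 had log2 fold changes of both groups of -0.03 (95% interval -0.12 to 0.06) and -0.03 (95% interval -0.11 to 0.05), and the lysosome-positioning gene Plekhm1 0.08 (95% interval -0.03 to 0.20).

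Inside the span of Arhgap27, on the plus strand, lies Arhgap27os3 (chr11:103344753-103350126), which at 0.380 CPM was under the floor and is no member. It had 7 to 14 reads in every KO and MUT library, 81 in all, against 2 reads in WT replicate 3 and 0 in the other 3 WT libraries. The ratio of summed reads per library total was 20.5, from reads pooled over libraries, which holds no measure of the spread between animals. Arhgap27os3 was named after its values were seen and passed the low-count filter only through the Grn-null libraries, so no test is given. Exons of Arhgap27 share 819 bases with an unnamed gene on the opposite strand, and no source used here says whether the counting used strand, so reads of both strands there cannot be told apart.

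The 27 members of synapse, ion flux and neuronal signalling had 0 calls, 4 with an unadjusted p under 0.05 and a median log2 fold change of -0.01. Ppp1r1b, the dopamine-signalling phosphatase inhibitor DARPP-32 of striatal projection neurons, is itself 1 of the striatal markers summed above. It measured 68.1, 76.1, 116 and 68.4 CPM in KO, 70.4, 72.5, 59.7 and 65.7 CPM in MUT, and 63.3, 155, 253 and 444 CPM in WT. WT replicate 1 lay among the Grn-null libraries and the other WT libraries far above them. Its log2 fold change of -1.44 (SE 0.44, edgeR adjusted p = 0.146) was 0.34 in animals under 310 days. The predicted gene 1700003D09Rik has exons that share 164 bases with Ppp1r1b on the opposite strand. It passed the floor only through WT, so its log2 fold change of -1.76 is a description and no test is given. Ppp1r1b, 1700003D09Rik and Meox1 were the 3 members past 1 in either direction. Mpp3, a membrane-associated scaffold of the MAGUK family, ranged from 68.5 to 83.6 CPM in Grn-null libraries and 61.7 to 73.2 CPM in WT.

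Of 25 members of RNA processing, translation and protein turnover, 0 were called, 6 had an unadjusted p under 0.05 and the median log2 fold change was 0.03. Smurf2, an E3 ubiquitin ligase that acts on receptors and SMADs of the TGF-beta pathway, was the only member beyond 2.5 Mb whose libraries did not overlap. It ranged from 32.7 to 37.4 CPM in Grn-null libraries and from 37.8 to 43.7 CPM in WT. Its log2 fold change was -0.18 ± 0.05 (SE; edgeR adjusted p = 0.128). Gpatch8, a G-patch domain protein, ranged from 158.2 to 172 CPM in Grn-null libraries and from 149.7 to 157.7 CPM in WT, and its log2 fold change of 0.07 (SE 0.03) was the closest to 0 of the 14.

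The 12 members of blood vessels, blood cells and glial surface had 0 calls, 1 with an unadjusted p under 0.05 and a median log2 fold change of -0.04, which was 0.28 in animals under 310 days and -0.27 without WT replicate 1. The 1 was Ramp2, the adrenomedullin co-receptor of endothelium, with 9.16 to 15.02 CPM in Grn-null libraries and 8.40 to 10.9 CPM in WT. This amounted to a log2 change of 0.39 ± 0.13 (SE; edgeR adjusted p = 0.165). Higd1b, a pericyte gene, ranged from 1.58 to 2.21 CPM in Grn-null libraries and from 1.82 to 2.82 CPM in WT. The 5 keratin and junction genes had 0 calls, 2 with an unadjusted p under 0.05 and a median log2 fold change of -0.12. The 2 were Krt10, an epidermal keratin, with 4.64 to 5.49 CPM in Grn-null libraries and 5.01 to 10.5 CPM in WT, and Jup, the junction protein plakoglobin, with 55.7 to 64.9 CPM in Grn-null libraries and 60.2 to 70.0 CPM in WT. In both genes WT replicate 1 fell inside the range of the Grn-null libraries.

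Of 61 members without a role list, 0 were called for both Grn-null groups together, 14 had an unadjusted p under 0.05 and the median log2 fold change was -0.02. Adam11 and 4 more of the genes with separate libraries were among the 61. The 14 include 1700003D09Rik, which passed the floor only through WT. Plekhh3, a protein with pleckstrin homology, MyTH4 and FERM domains, measured 20.2, 20.5, 24.4 and 24.4 CPM in KO, 23.9, 22.5, 22.8 and 21.03 CPM in MUT, and 18.7, 17.6, 16.3 and 16.3 CPM in WT. The log2 fold change was 0.33 ± 0.06 (SE; edgeR adjusted p = 0.0761). Rdm1, an RNA-binding protein of the DNA damage response, measured 2.73, 2.88, 3.94 and 3.13 CPM in KO, 2.81, 2.43, 2.52 and 2.98 CPM in MUT, and 4.02, 4.12, 4.30 and 4.59 CPM in WT. Its log2 fold change was -0.60 ± 0.13 (SE; adjusted p = 0.0864). In Rdm1 the nearest libraries, KO replicate 3 and WT replicate 1, measured 3.94 and 4.02 CPM. Retreg3, a receptor that feeds endoplasmic reticulum into autophagy, ranged from 77.4 to 85.2 CPM in Grn-null libraries and from 70.2 to 76.4 CPM in WT. This amounted to a log2 change of 0.14 ± 0.04 (SE; adjusted p = 0.132). P3h4, a partner of collagen-modifying enzymes in the endoplasmic reticulum, ranged from 11.71 to 15.9 CPM in Grn-null libraries and from 10.1 to 11.66 CPM in WT. The log2 fold change was 0.25 ± 0.08 (SE; adjusted p = 0.138).

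Beside Retreg3 lies Tubg1, and a short way above it its paralog Tubg2, both gamma-tubulins that nucleate microtubules. They are named here after their values were seen. Tubg1 averaged 40.5 ± 2.65 CPM in KO, 39.0 ± 0.94 CPM in MUT and 35.4 ± 1.82 CPM in WT (SD, n = 4 each), and Tubg2 42.3 ± 1.95 CPM in KO, 38.2 ± 1.11 CPM in MUT and 45.7 ± 1.38 CPM in WT. Their log2 fold changes were 0.20 (SE 0.05, edgeR adjusted p = 0.095) and -0.20 (SE 0.04, adjusted p = 0.0864), of opposite sign and neither past the threshold. Their transcripts were 93.1% identical over 1371 aligned bases, with identical runs of up to 164 bases, so reads can be split between them and both values are uncertain.

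The 8 members nearest Grn, 4 on each side, had 0 calls for both Grn-null groups. Below Grn lie Atxn7l3, Ubtf, Rundc3a, a neuronal RUN-domain protein, and Slc25a39, a mitochondrial carrier needed for glutathione import. Above it lie Fam171a2, the platelet integrin Itga2b, Gpatch8 and the predicted gene Gm11627. Slc25a39 averaged 54.3 ± 2.02 CPM in KO, 51.5 ± 3.56 CPM in MUT and 51.6 ± 1.81 CPM in WT. Fam171a2, 0.01 Mb above Grn by midpoint, averaged 132.8 ± 10.5 CPM in KO, 128.3 ± 8.47 CPM in MUT and 140.5 ± 13.5 CPM in WT. In neither gene did both Grn-null groups together differ from WT at an unadjusted p under 0.05. Log2 fold changes of both Grn-null groups ran from -0.11 to 0.07 over the 8 genes, with 95% intervals up to 0.82 wide, and the 1 with an unadjusted p under 0.05 was Gpatch8. In animals under 310 days the largest absolute value among them was 0.58.

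Starts within 1000 bases of each other on opposite strands were found in 18 pairs of members. Both genes of a pair had the same sign of log2 fold change in 10 of the 18. In 3 pairs both genes had an unadjusted p under 0.05, in 5 pairs 1 gene did and in 10 neither. Among the 5 is the pair of Stard3 with 1700003D09Rik, which passed the floor only through WT. The 3 were Plcd3 and Acbd4 with starts 30 bases apart, Retreg3 and Tubg1 with starts 288 bases apart, and Cdc27 and Myl4 with starts 43 bases apart. Myl4, a myosin light chain of atrial muscle, averaged 19.7 ± 3.48 CPM in KO, 14.3 ± 1.07 CPM in MUT and 26.5 ± 11.5 CPM in WT, with WT libraries from 16.5 to 42.8 CPM that overlapped KO and MUT. Cntd1, a cyclin-like gene of meiosis and the partner of Coa3 with a start 255 bases away, was close to the floor at 0.34 to 0.77 CPM in Grn-null libraries and 0.44 to 1.09 CPM in WT, and its log2 fold change of -0.50 had an interval from -1.22 to 0.21. Exons of Cntd1 share 435 bases with Becn1 on the opposite strand. Whether the counting used strand is not given, so reads of both genes there cannot be told apart.

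Per length of exon, the level of the members ranged from 281 RPKM (CPM divided by exon length in kilobases) for Nsf, the ATPase that recycles SNARE complexes, to 0.145 RPKM for Wnt9b, with a median of 12.3 RPKM. Thra, the thyroid hormone receptor alpha, had 267 RPKM, the RNA helicase Ddx5 245 RPKM and the proton pump subunit Atp6v0a1 151 RPKM. The 14 genes with separate libraries had levels of 0.371 to 58.9 RPKM with a median of 9.42 RPKM. Reads of 33 members fall partly on exon bases shared with another gene, 30 of them with a gene on the opposite strand, and none of the 14 is among these 33.

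KO and MUT were compared directly, in a contrast that the WT mean does not enter. The spread and the labelled-sex term still came from the fit of all 12 libraries, WT included. Over the 14 genes the log2 fold change of MUT against KO ran from -0.27 (Rdm1, 95% interval -0.59 to 0.05) to 0.26 (Meox1, 95% interval -0.27 to 0.78), and 1 of them, Coa3, had an unadjusted p under 0.05. Over all members 10 (5.29%) had an unadjusted p under 0.05, beside 5.73% of all genes, and the lowest adjusted p was 0.666. The interval reached the size of the gene's own shift from WT in P3h4 (-0.28 to 0.07, shift 0.25) and Gpatch8 (-0.084 to 0.077, shift 0.074). In the others of the 14 it did not, though it came close in Rdm1, with a shift of -0.60. Differences between KO and MUT smaller than these shifts could go undetected.

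Ages and tissue makeup of the WT libraries moved with these results, and their part in them was not tested. Age and genotype can be set apart only through WT replicate 1, which is also the 1 WT library labelled female, so that age and labelled sex cannot be told apart within WT. Against WT replicate 1 in animals under 310 days, the 14 genes had absolute log2 fold changes of 0.067 to 1.43, and 13 of the 14 were smaller than with all WT libraries. With the striatal marker level as a term 12 of the 14 were smaller, and with age as a term 10. Rdm1 was -0.37, Acbd4 0.33, Coa3 -0.25 and Plcd3 0.40 in animals under 310 days. Adam11 was 0.21 there and 0.43 with all libraries.

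**Figure D5:**
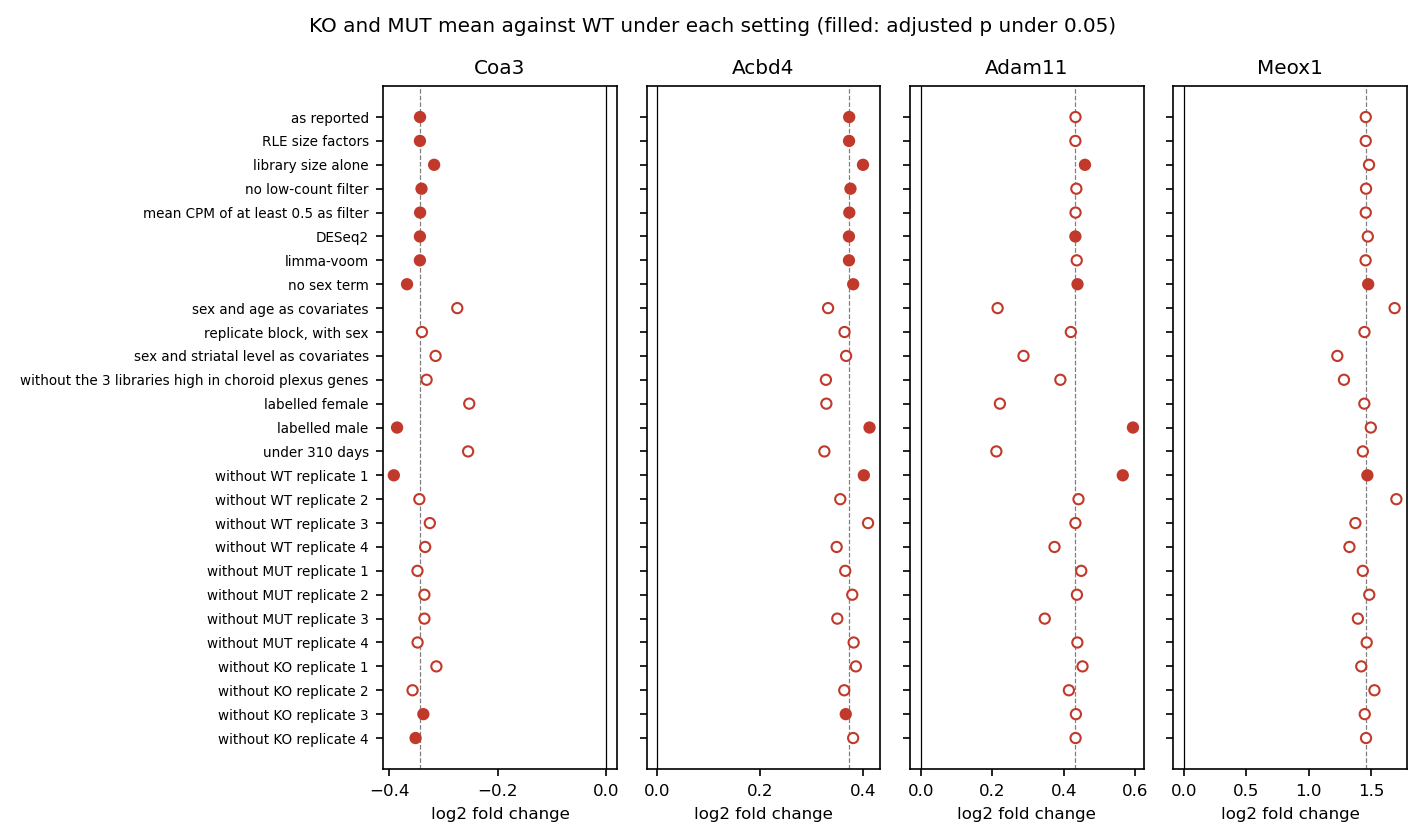
Log2 fold change of the mean of KO and MUT against WT for Coa3, Acbd4, Adam11 and Meox1, 1 row per processing setting, with filled points where the adjusted p is under 0.05 and a dashed line at the value reported. Over the settings Acbd4 runs from 0.33 to 0.41, Coa3 from -0.39 to -0.25, Adam11 from 0.21 to 0.59 and Meox1 from 1.23 to 1.70. Meox1 passed the 0.5 CPM floor only through the Grn-null libraries, so its filled points are a description and no test.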

How the data were processed

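Per the labels' protocols, RNA of 12 cortex samples went into NEBNext Ultra II directional libraries. What the authors deposited is 1 table of raw counts per gene, in the featureCounts column layout per its header. Genome build mm10, R 4.1.2 and DESeq2 1.34.0 come from the submitters' processing notes. The aligner, the counting program and its strand mode were not given in the sources used here. Library totals were 16381221 to 20782195 counts.

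Genes were filtered with filterByExpr by group (minimum count 10, minimum total 15), normalized with TMM factors and modelled with edgeR 4.0.16 under R 4.3.3 on group and labelled sex over all libraries (8 residual degrees of freedom, biological coefficient of variation 0.101). Quasi-likelihood tests were adjusted by Benjamini-Hochberg over 15298 genes, threshold 0.05. The test was also run on simulated counts, drawn without differences in age or tissue makeup between libraries. No result here rests on that run. CPM values use TMM-scaled totals, and the 0.5 CPM floor plain totals; either gave the same 189 members. RPKM was computed from the counts and the exon length in the table. Sequences came from RefSeq promoter entries, which cover 125 members.

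The members, role lists and marker lists were chosen with earlier results of these data known. Named genes are Grn, called members, members whose Grn-null and WT libraries do not overlap (up to 8 each way, here with the ninth raised one, Gpatch8, also among the nearest), the 4 nearest on each side of Grn, and up to 2 members per role list with the smallest p. Others are named as neighbours, edges or examples after their values were seen. Alternatives were RLE factors, library size alone, 2 low-count filters, DESeq2 1.42.0, limma-voom 3.58.1, other covariates, a replicate block, subsets by labelled sex, age or choroid plexus genes, and leaving out single libraries.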

Additional observations from a re-analysis of the deposited data

Results flagged for a closer look

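Of 87 groups of 4 libraries examined, 4 held a library far from the other 3, and chance flags about 1 in 20 such groups. Coa3 was 34.7 CPM in MUT replicate 2, against 37.1 to 37.2 CPM in the other MUT libraries. Mpp3 was 83.6 CPM in MUT replicate 1, against 76.1 to 76.6 CPM in the other MUT libraries. Ppp1r1b was 116 CPM in KO replicate 3, where choroid plexus genes were also high and which was the highest of the KO libraries in summed striatal markers, against 68.1 to 76.1 CPM in the other KO libraries. Smurf2 was 43.7 CPM in WT replicate 4, the WT library highest in striatal and choroid plexus markers, against 37.8 to 38.6 CPM in the other WT libraries. The part of these markers in the values was not tested.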

How the results depend on the processing

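Calls moved with the model and the libraries used. With both Grn-null groups against WT, 13 members were called by DESeq2 (beside 3.41% of all genes), 17 without the sex term (beside 3.92% of all genes) and 21 in libraries labelled male (beside 7.75%). The count was 0 with sex and age, with the replicate block, with the striatal marker level, without the 3 libraries high in choroid plexus genes, in libraries labelled female and in animals under 310 days. Leaving out 1 library at a time gave 0 to 28. For KO against WT the counts were 11, 8 and 13 under the first 3 of these settings (beside 4.23%, 2.05% and 6.82%), 0 under the next 6, and 0 to 22 with 1 library left out. For MUT against WT they were 4, 1 and 4 under the first 3 (beside 0.34%, 0.0458% and 1.71%), and 0 to 21 with 1 library left out. Members called the same way in KO and in MUT numbered 3, 1 and 3 (beside 0.275%, 0.0392% and 1.42%), and 0 to 14. Each highest value came without WT replicate 1. MUT against KO gave 0 members in all 26 alternatives. The cause of these differences was not tested, but subsets hold fewer samples. Among libraries labelled male, MUT replicate 3 is the only MUT library. The WT libraries there were 375 days old and the KO and MUT ones under 310 days, so age and genotype cannot be told apart.

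Libraries did not overlap in 75 members in libraries labelled female (beside 37% of all genes), 87 in those labelled male (beside 32.8%) and 52 in animals under 310 days (beside 23.6%), and in 14 to 32 with 1 library left out. By distance, in the same 3 subsets, the counts were 23, 24 and 18 under 1 Mb, 22, 26 and 14 from 1 to 2.5 Mb and 30, 37 and 20 from 2.5 to 5 Mb. With 1 library left out they ran from 7 to 11, 6 to 9 and 1 to 12, and from 2.5 to 5 Mb the count was 4 without the libraries high in choroid plexus genes. Subsets with a single WT library (labelled female, under 310 days) assume that it varies like the other groups.

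Among the 21 members whose own log2 fold changes were recomputed, those of both Grn-null groups changed sign for 3. Higd1b was 0.11 with sex and age, 0.050 in libraries labelled female and 0.045 under 310 days. Ppp1r1b was 0.18, 0.34 and 0.34 under the same settings. Krt10 was 0.012 with the striatal marker level, 0.0053 in libraries labelled female and 0.000582 under 310 days. Coa3 was called in 11 of the 26 alternatives, Acbd4 in 10, and Adam11 in KO in 10. Replicate numbers do not pair the samples: same-numbered libraries had correlations of -0.38 to 0.29 in their deviations, 1 of 12 pairs was over 0.1, and 2 of 12 libraries correlated best with their own number. At these depths Meox1 and Cntd1 rest on few reads.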
